A study of Mus musculus with 3 samples.

Results

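The regions described here were the stretches of skin chromatin that were most open in anagen, the growth phase of the hair cycle. They were chosen from single-nucleus ATAC-seq, an assay in which a transposase cuts accessible DNA and barcodes assign the reads to single nuclei. Of 315694 deposited features, each 500 bp long, 308931 lay on autosomes and 47098 of these had at least 50 anagen counts. A region was a member when its anagen CPM (counts scaled to the same total in every condition) was at least 4 times that of both telogen and UVB skin, a condition with no count being set to 3 counts. This gave 2924 members, 6.21% of the features tested.

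The mice carried Dct-rtTA and Tre-H2B-GFP, so that doxycycline, given for 5 days, put a histone-GFP label on cells driving the Dct promoter, and GFP-positive nuclei of back skin were sorted. All 3 groups carried both transgenes and had received doxycycline. Telogen nuclei came from 12 mice in the resting phase, and anagen nuclei from 8 mice whose hair cycle had been started by depilation with Nair cream, so that anagen and depilation cannot be told apart. These 20 mice were pooled in 1 library. UVB nuclei came from a pool of 24 mice given UVB at 2.2 mJ/cm2 on 3 occasions within a week, run as 2 technical replicates to which the nuclei were not assigned here. The age is given as 7 weeks in one label and 8 weeks in another. Each condition was therefore 1 sample: there was no replicate error, no test was made, and all intervals are 95% intervals for counting error alone. UVB was in a library of its own, so that the UVB treatment and the library cannot be told apart. The contrasts with telogen and with UVB share the same anagen counts.

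Hair pigment is made by melanocytes in the follicle. In telogen the follicle holds melanocyte stem cells and few pigment-making cells, and at anagen onset the stem cells give rise to melanocytes that pass melanin, packed in organelles called melanosomes, to the growing hair. MITF is the central transcription factor of this lineage and acts with SOX10 and PAX3. Regions that open in one cell state often lie inside genes or between them, at distal regulatory elements, whereas promoters of widely used genes stay open in most cells.

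After each barcode was counted once per condition, 2042 telogen, 3753 anagen and 6553 UVB nuclei remained, with 5225945, 10397896 and 16182770 counts in features and medians of 1650, 1577 and 1726 counts per nucleus. Of the entries above 0, 61.0% were 2 and 30.9% were 1, so most counts came in pairs and the intervals are too narrow. Barcodes seen in more than 1 condition numbered 506. Of these, 217 were shared between anagen and UVB and none between anagen and telogen, so the rest were shared between telogen and UVB. The sorted nuclei fell into 11 clusters, built without the members, of which 3 were melanocyte-like. The others were endothelial-like, keratinocyte-like (2 clusters), fibroblast-like (2), myeloid and Langerhans-like and Schwann-like, and cluster 6 stayed unnamed.

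A promoter window here is the 250 bases before to 50 bases after a gene start in the RefSeq table of GRCm38.p6. Of the 2924 members, 30 (1.03%) overlapped such a window. This share was not computed for all tested features. Within 1 kb of a protein-coding gene end lay 3.9% of members, beside 34.3% of all tested features. The windows overlapped by members belonged to 31 genes, 11 of them protein-coding. The 6 printed here are the promoters of Oca2 and Slc24a4, both pigment genes, of Tmcc3 and Chn2, whose regions had the most anagen counts among the remaining protein-coding genes with a SOX-type match, and of the non-coding genes Gm34799 and Gm35074, which hold MITF-type matches. Sequences run 5′ to 3′ on the gene's strand, and capitals mark matches on either strand to ACAAAG or ACAATGG (SOX-type) and TCATGTG or TCACGTG (MITF-type).
Oca2, chr7:56239509-56239808, plus strand: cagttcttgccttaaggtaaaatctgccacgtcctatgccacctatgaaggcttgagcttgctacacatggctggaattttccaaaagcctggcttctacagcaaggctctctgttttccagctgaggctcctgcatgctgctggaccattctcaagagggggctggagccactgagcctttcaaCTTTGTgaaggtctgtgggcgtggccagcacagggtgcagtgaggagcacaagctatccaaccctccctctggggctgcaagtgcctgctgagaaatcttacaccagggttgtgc
Slc24a4, chr12:102128477-102128776, plus strand: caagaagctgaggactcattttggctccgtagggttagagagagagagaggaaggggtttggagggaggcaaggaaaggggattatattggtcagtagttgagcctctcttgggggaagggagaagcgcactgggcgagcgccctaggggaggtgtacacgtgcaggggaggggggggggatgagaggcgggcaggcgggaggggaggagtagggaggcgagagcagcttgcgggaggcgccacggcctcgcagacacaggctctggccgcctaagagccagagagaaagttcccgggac
Chn2, chr6:54272572-54272871, plus strand: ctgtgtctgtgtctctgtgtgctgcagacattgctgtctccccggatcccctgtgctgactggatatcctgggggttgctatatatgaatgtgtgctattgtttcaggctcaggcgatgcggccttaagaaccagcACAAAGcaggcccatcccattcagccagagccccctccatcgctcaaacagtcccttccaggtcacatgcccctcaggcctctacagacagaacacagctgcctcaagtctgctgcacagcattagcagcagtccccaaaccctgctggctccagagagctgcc
Tmcc3, chr10:94550622-94550921, plus strand: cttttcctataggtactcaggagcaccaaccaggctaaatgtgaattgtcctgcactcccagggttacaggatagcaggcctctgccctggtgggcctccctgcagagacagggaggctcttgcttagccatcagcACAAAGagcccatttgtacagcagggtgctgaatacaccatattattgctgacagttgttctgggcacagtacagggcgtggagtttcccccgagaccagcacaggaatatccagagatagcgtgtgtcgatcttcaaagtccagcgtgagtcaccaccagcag
Gm34799, chr17:9929772-9930071, minus strand: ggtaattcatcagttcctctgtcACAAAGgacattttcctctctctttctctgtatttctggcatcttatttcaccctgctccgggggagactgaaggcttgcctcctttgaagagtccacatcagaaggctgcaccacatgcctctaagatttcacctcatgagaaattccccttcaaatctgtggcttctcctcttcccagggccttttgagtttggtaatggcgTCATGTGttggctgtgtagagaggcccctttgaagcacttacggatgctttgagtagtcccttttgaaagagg
Gm35074, chr4:130317879-130318178, plus strand: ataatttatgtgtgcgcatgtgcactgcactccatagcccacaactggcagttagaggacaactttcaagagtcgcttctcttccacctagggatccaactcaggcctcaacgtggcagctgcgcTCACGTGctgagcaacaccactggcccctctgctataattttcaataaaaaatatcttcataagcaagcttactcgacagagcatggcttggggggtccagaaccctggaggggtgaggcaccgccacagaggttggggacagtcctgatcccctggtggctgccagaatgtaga

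The region over the Oca2 window had 3 telogen, 128 anagen and 19 UVB counts, and its SOX-type match starts at base 186 of the window. The Slc24a4 window, with no match to these 4 motifs, was covered by a region with 0 telogen, 77 anagen and 25 UVB counts. The Chn2 region had 1, 110 and 10 counts and the Tmcc3 region 9, 113 and 37. The region over Gm34799 had 5, 111 and 41 counts, and that over Gm35074 had 4, 130 and 22. The Gm35074 region overlapped only 161 of the 300 bases of its window, and the TCACGTG match lies outside that region. The other printed windows lay wholly within their regions. In all 6 the anagen count was the highest, as the rule required. The 31 windows were poor in CpG, with a median of 4 and a GC content of 51.7%. Windows overlapped by any tested feature (10052) had a median of 22 CpG and a GC content of 62.3%, and all 27025 windows of the table, 1 per gene, had 7 and 52.7%.

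SOX-type letters were frequent in the member windows. ACAAAG was found in 12 of 31 (38.7%), beside 12.1% of windows under tested features and 18.7% of all windows. ACAATGG was in 3 (9.68%), beside 1.66% and 3.71%. TCATGTG was in 3 (9.68%), beside 1.87% and 3.74%, while TCACGTG was in 2 (6.45%), beside 6.32% and 3.84%. The GC-rich letters GGGCGG, which SP and KLF factors bind, were in 4 (12.9%), beside 68.6% and 35.9%. With 31 windows each share rests on a few matches, and a match shows letters, not binding. Matches were counted over whole windows, some overlapped by as few as 12 bases (Slc7a9), so a match can lie outside the member. The Slc7a9 and Gm42378 windows were overlapped by the same member. Member windows had a lower GC content than windows under tested features (51.7% against 62.3%). Motif shares at equal GC content were not computed. At 1 position and strand a window can match only one of the motifs of a factor.

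The values that chose the members are given as a description. Over the 2924 members the median was 3 counts in telogen (range 0 to 21), 70 in anagen (50 to 315) and 16 in UVB (0 to 94), or 0.574, 6.73 and 0.989 CPM. The median ratio of anagen to telogen was 10.7 (range 4.02 to 109) and that of anagen to UVB was 6.74 (4.00 to 168). UVB gave the smaller of the 2 ratios for 2050 members and telogen for 874. At least 10-fold over both conditions were 538 members, and at least 20-fold were 52. No telogen count was seen in 546 members and no UVB count in 8. Alone, the 4-fold threshold over telogen was passed by 7972 tested features (16.9%) and that over UVB by 3877 (8.23%). Just inside the thresholds lay a region in Aff3 with 50 anagen counts, one in Zmiz1 at 4.02-fold over telogen and one in Enox1 at 4.00-fold over UVB. Just outside were an Aff3 region with 49 anagen counts, a Gpatch2 region at 3.98-fold over telogen and a region near Npy at 3.99-fold over UVB.

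**Figure D1:**
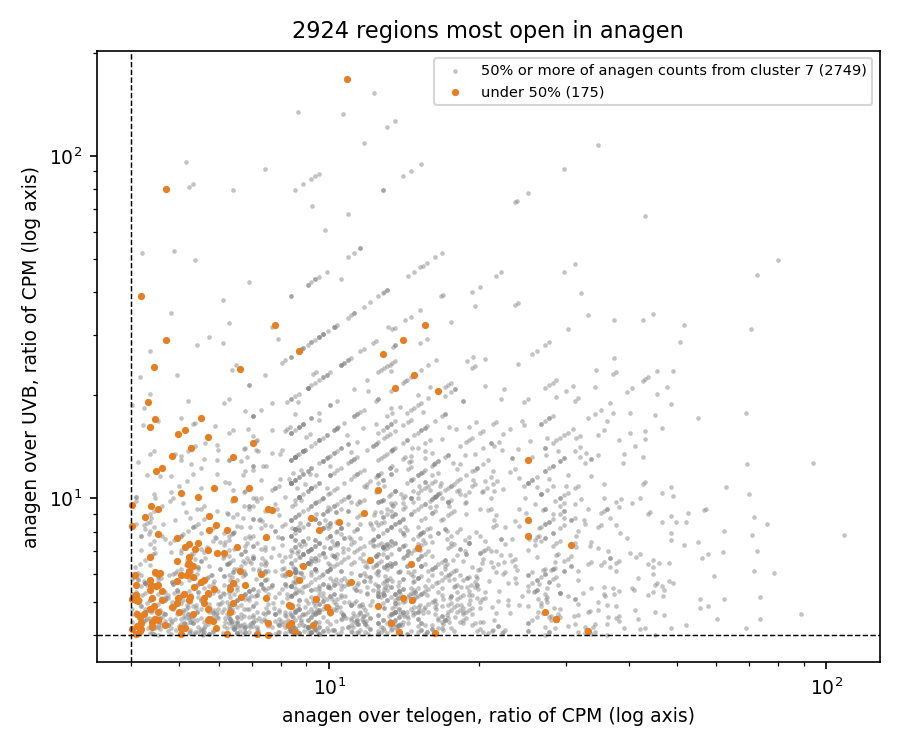
Ratio of anagen to telogen CPM (x axis) and of anagen to UVB CPM (y axis), both on log axes, for the 2924 members. Each point is a region, dashed lines mark the 4-fold thresholds, and orange points are the 175 regions with under 50% of their anagen counts from cluster 7. Both ratios share the anagen count, and the diagonal rows come from small whole counts. The bulk of the points lies under 20-fold on both axes.

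The members were carried mainly by 1 group of anagen nuclei. Cluster 7, a melanocyte-like cluster, held 787 anagen nuclei (21.0% of 3753), 3 telogen nuclei and 44 UVB nuclei. It gave 41.2% of all anagen counts but 86.6% of the members' anagen counts. In this cluster 11 of 12 melanocyte markers were at least 2-fold above the other clusters outside member regions, among them Oca2 (7.58-fold), Kit (5.86-fold), Tyrp1 (5.46-fold) and Trpm1 (5.27-fold); Pmel reached 1.94-fold. The other melanocyte-like clusters, 0 and 5, had 6 and 7 of the 12 markers at least at 2-fold. Dct was among them at 3.22-fold and 2.63-fold, beside 2.71-fold in cluster 7. Oca2 stood at 0.518-fold and 0.488-fold in clusters 0 and 5, and Trpm1 at 1.10-fold and 0.814-fold. Cluster 7 was thus the only melanocyte-like cluster with Oca2 above the other nuclei. Its nuclei were also deeper, with a median of 3391 counts in anagen beside 1363 in the other anagen nuclei.

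By region, the median share of anagen counts that came from cluster 7 was 92% in members and 40.9% in the other tested features. At least 50% came from it in 2749 members (94.0%), beside 18664 of all tested features (39.6%). At least 80% came from it in 2523 members (86.3%). Of the 7468 tested features at 80% or more, 33.8% were members. The members fell into a large and a small set with little between: only 30 had between 40% and 60% of their anagen counts from cluster 7. Nuclei were clustered on the same libraries, and although members were left out of the clustering, the shares are a description and no test of the cluster.

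**Figure D2:**
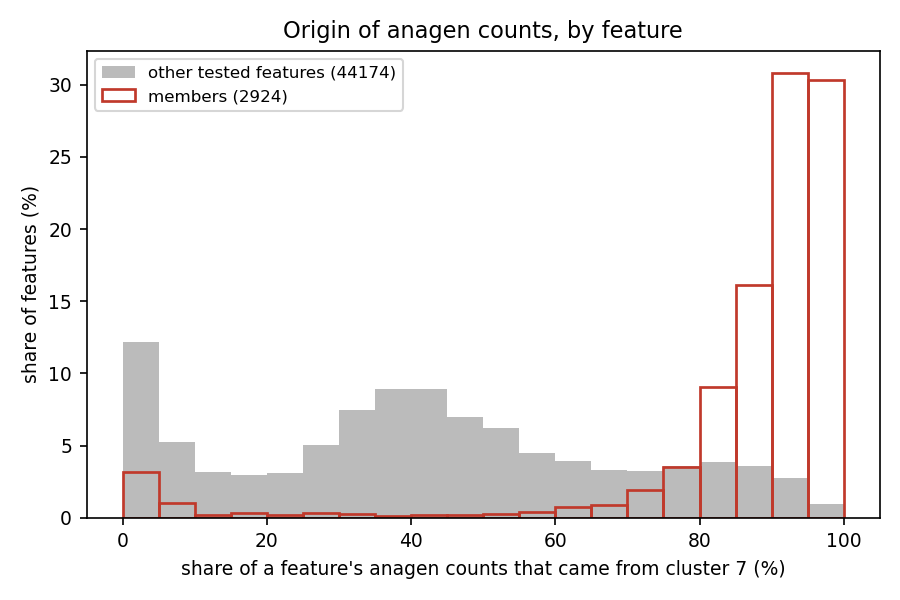
Share of each feature's anagen counts that came from cluster 7 (x axis, %, in bins of 5) and the share of features in each bin (y axis, %). Grey bars are the 44174 other tested features and red outlines the 2924 members. Most members lie at 80% or more, and a small set lies near 0.

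Single nuclei showed the same division. An anagen nucleus of cluster 7 had a median of 92 members open (highest 677), and the other anagen nuclei had a median of 3. After every nucleus was thinned to 1000 counts, leaving out 1014 shallower anagen nuclei, cluster 7 nuclei had a median of 46 member counts and the others 4. At least 20 member counts were held by 744 of 2739 thinned anagen nuclei (27.2%, Clopper-Pearson interval 25.5 to 28.9). In telogen 3 of 1602 nuclei (0.187%) did so and in UVB 32 of 5262 (0.608%), after 440 and 1291 shallower nuclei were left out. The 3 telogen nuclei were those of cluster 7. Member-rich nuclei were thus present in all 3 conditions and common in anagen alone, a direction that the choice of members favours. The sort and the pooling of mice can set such shares.

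Summed over all members, the contrast between conditions was smaller within each cluster than over all nuclei, to a degree that differed between clusters. Summed over members, the anagen share of counts was 2.26% over all nuclei, beside 0.192% in telogen (ratio 11.8, 11.5 to 12.0) and 0.331% in UVB (ratio 6.82, 6.75 to 6.88). In cluster 7 the members held 4.75% of anagen counts, 3.11% of telogen counts and 2.82% of UVB counts. The ratios there were 1.53 (1.36 to 1.73) over telogen, from 3 telogen nuclei, and 1.68 (1.64 to 1.72) over UVB. In the melanocyte-like clusters other than 7, members held 0.819% of anagen counts, with ratios of 1.74 (1.64 to 1.85) and 1.91 (1.85 to 1.97). Over all nuclei outside cluster 7 the ratios were 2.76 (2.70 to 2.82) and 1.77 (1.74 to 1.80). By cluster, the ratio over telogen ran from 1.53 in cluster 7 to 3.77 in the keratinocyte-like cluster 4, and that over UVB from 1.22 in the Schwann-like cluster 9 to 3.50 in the fibroblast-like cluster 3, with 3.00 in cluster 4. In each of the 11 clusters the member share was higher in anagen than in telogen and than in UVB, which is the direction the choice of members favours. With cluster 7 left out of all 3 conditions, 592 of the 25619 features then tested passed the rule (2.31%), of which 132 were members. Only 135 members then still had 50 anagen counts, 209 kept 4-fold over both conditions at any count, and the median of the smaller ratio was 1.04.

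**Figure D3:**
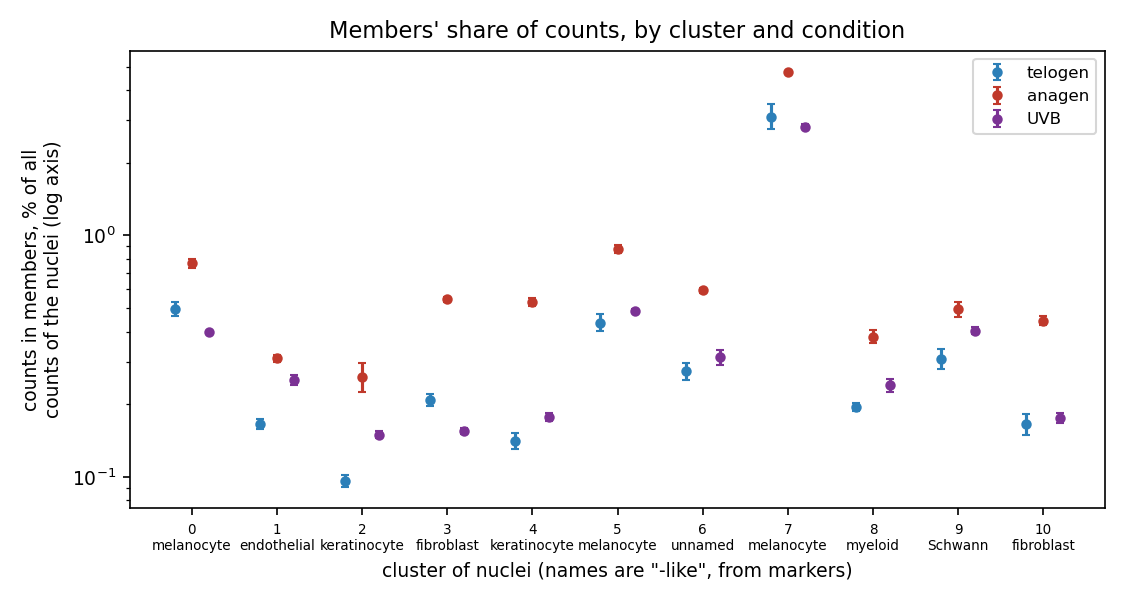
Counts in members as a percentage of all counts of the nuclei (y axis, log scale) for each of the 11 clusters (x axis) in telogen, anagen and UVB; bars are 95% Clopper-Pearson intervals for counting error. All 3 conditions stand at 2.82% to 4.75% in cluster 7, and every other cluster is under 1% in every condition.

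The 3 telogen nuclei of cluster 7 had 2.51%, 2.69% and 4.90% of their counts in members. The 44 UVB nuclei ranged from 0.704% to 5.31%, with a median of 2.92%. Of these, 31 came from UVB tag number 24, one of the numbers in the barcode names that the labels do not explain, and 6 had a barcode also seen in anagen. Without tag number 24 the median was 1.84% over 13 nuclei, and without the shared barcodes it was 2.86% over 38.

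Anagen nuclei of cluster 7 were spread unevenly over the 8 anagen tag numbers. Tag number 5 held 402 of the 787, which was 57.3% of its nuclei, beside 9.97% to 34.0% in the other tag numbers with at least 50 nuclei. The members' share of counts in cluster 7 nevertheless lay between 4.51% and 4.95% in all 7 tag numbers of that size. Without tag number 5, 625 of the 32043 features then tested passed the rule (1.95%), 488 of them members. At 50 anagen counts or more there were still 736 members. At any count, 1755 members kept 4-fold over both conditions and 2899 kept 2-fold.

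Deep nuclei carried much of the signal. In anagen, 318 of the 787 cluster 7 nuclei (40.4%) were above 3 times the median count, 4731 counts, and gave 66.0% of the members' anagen counts; of the other anagen nuclei 8.63% were that deep. Members made up 4.81% of the counts of the deep cluster 7 nuclei and 4.56% of those of the others. With nuclei above 3 times the median left out of each condition, 150 of the 20466 features then tested passed the rule (0.733%). Of these, 62 were members, and 119 members still had 50 anagen counts or more. The ratios of the summed members were then 6.30 over telogen and 4.02 over UVB, 1025 members kept 4-fold at any count and 2530 kept 2-fold. Doublets were not called, and their part in the deep nuclei was not tested. A member had a count in a median of 38 anagen nuclei (1.01%), and its 5 highest nuclei gave a median of 20.7% of its anagen counts.

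Members lay mostly inside genes and away from gene ends. Relative to RefSeq protein-coding genes, 79.3% of members were inside a gene and more than 1 kb from its ends, 3.9% were within 1 kb of a gene end and 16.8% were between genes. Of all tested features 41.7% were inside genes, 34.3% near an end and 24.0% between genes. Non-members with 80% or more of their anagen counts from cluster 7 had 67.9% inside, 6.1% near an end and 25.9% between. The members' distance to the nearest gene end had a median of 22.3 kb, beside 4.79 kb in the other tested features. The annotation used here gave no exons, so exonic and intronic members were not separated.

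**Figure D4:**
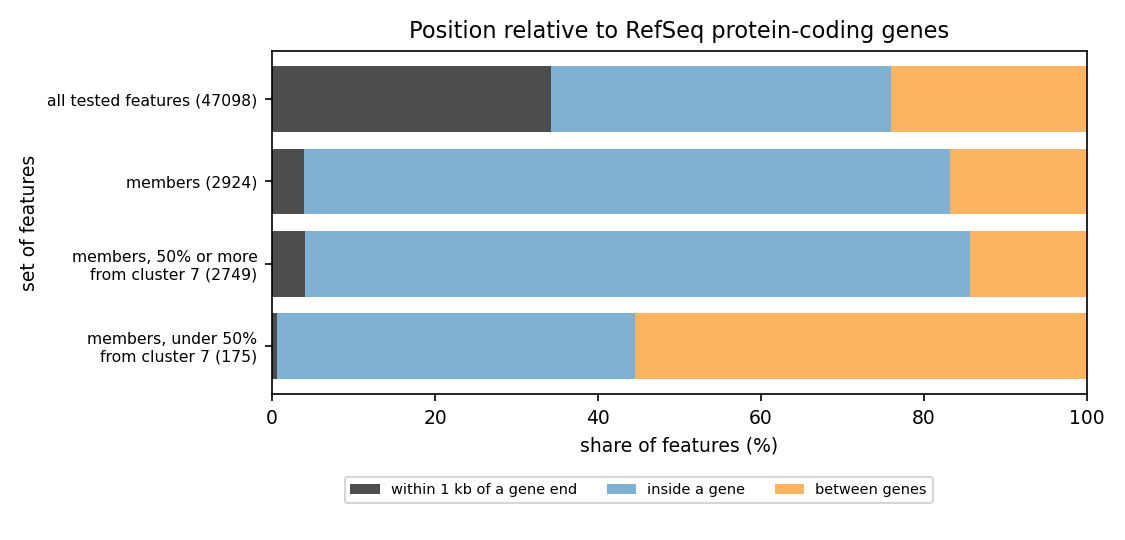
Share of features (x axis, %) within 1 kb of a protein-coding gene end, inside a gene or between genes, for all tested features, all members, and members with at least or under 50% of their anagen counts from cluster 7. Gene ends take up 34.3% of tested features and 3.9% of members, and the 175 members under 50% lie mostly between protein-coding genes.

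The nearest protein-coding genes numbered 1803, of which 1233 had 1 member and 68 had 5 or more. A nearest gene is a position and not a target. Trpm1, a cation channel first known from melanocytes, had the most members with 16 of its 32 tested features. Kif26b, of the kinesin family, followed with 12 of 26, and Sox5, an HMG-box factor that tempers SOX10 activity in melanocytes, with 11 of 43. St7 had 11 of 18 and Rarb, a retinoic acid receptor, 11 of 27. Dst, a cytoskeletal linker, had 10 of 30, Nav2 10 of 42, and Oca2, which sets the ion balance of the melanosome, 10 of 13. Ptprg, a receptor phosphatase, had 9 of 19 and Hk2, which starts glycolysis, 9 of 18. These genes range from the 49.4 kb of Hk2 to the 954 kb of Sox5, and long genes offer more features. Oca2 and St7 had the highest shares of their tested features among these 10 genes.

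Runs of neighbouring members were described by joining members no more than 100 kb apart. They formed 1726 runs, of which 282 held 3 or more members and together 1157 members (39.6%), while 1121 members stood alone. Of all tested features, which are far denser along the chromosomes, 95.1% lay in such runs, and no comparison at equal density was made. The longest run was in Trpm1, where all 16 members lay within 81.5 kb, at chr7:64165704-64247156, among 28 tested features. In Kif26b, 12 of 13 tested features over 202 kb were members. A run from Cpsf2 to Slc24a4 held 12 of 16 over 265 kb, and one in St7 11 of 15 over 187 kb. In the Kif26b run every member had at least 85.2% of its anagen counts from cluster 7.

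The list with most members was that of pigment synthesis and melanosome genes. All lists were drawn up with earlier results of these data known, so their shares are a description. Of 225 tested features nearest to these genes 62 were members (27.6%, beside 6.21% of all tested features), spread over 11 of the 20 genes with a tested feature. Over all 225 the median log2 ratio was 2.77 over telogen and 1.25 over UVB, beside 0.37 and 0.26 over all tested features. The members had a median of 90.9% of their anagen counts from cluster 7.

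Trpm1 led the pigment list. Its 16 members summed to 37 telogen, 1165 anagen and 190 UVB counts, 15.8-fold over telogen (11.4 to 22.6) and 9.54-fold over UVB (8.18 to 11.2). Single members had 5.00 to 9.23 CPM in anagen, 0 to 1.91 in telogen and 0.247 to 1.36 in UVB. The rule sets the gap between these ranges. The 16 other tested features of Trpm1 had up to 38.5 CPM in anagen but medians of 2.30 in telogen and 5.13 in UVB. The Trpm1 features most accessible in anagen were thus not members. The highest, at 38.5 CPM, had 16.3 CPM in UVB but 2.30 in telogen, and so missed the UVB threshold alone. The next, at 21.5 CPM, had 12.4 in telogen and 15.5 in UVB.

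Oca2 summed to 31, 786 and 164 counts over 10 members, 12.7-fold over telogen (8.90 to 18.9) and 7.46-fold over UVB (6.30 to 8.88). These members ran from the gene start to 280 kb into the gene of 297 kb. Slc24a4, a potassium-dependent sodium and calcium exchanger linked to hair and eye colour, summed to 18, 572 and 99 counts over 8 of 11 tested features, 16.0-fold (10.0 to 27.1) and 8.99-fold (7.25 to 11.2). Relative to the gene start its members reached from -58.8 kb, before the gene, to 134 kb.

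**Figure D5:**
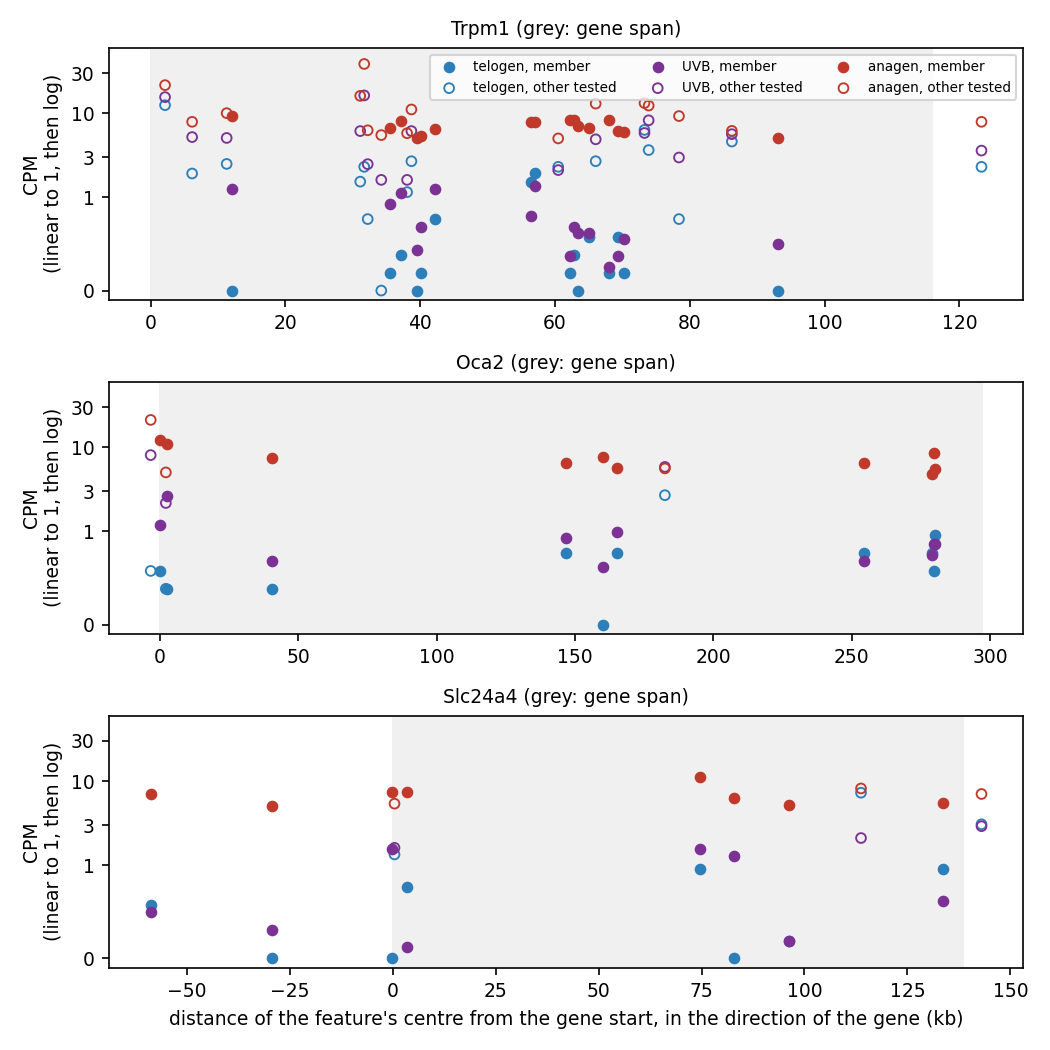
CPM (y axis, linear up to 1 and logarithmic above) of the tested features nearest to Trpm1, Oca2 and Slc24a4 by distance from the gene start (x axis, kb, in the direction of the gene). Colours are conditions, filled points members, open points other tested features, and grey the span of the gene. Anagen points of members lie between 4.81 and 12.3 CPM and the telogen and UVB points of the same regions at 2.60 or lower. The rule sets this gap.

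Other pigment genes had fewer members. Myo5a, the motor that moves melanosomes along actin, had 7 of 13 features as members, with 20 telogen, 471 anagen and 128 UVB counts. Slc24a5, an exchanger needed for pigment, had 5 of 19 with 9, 442 and 127 counts, and Bace2, a protease that trims PMEL, 5 of 18 with 15, 453 and 104. The melanin enzymes Dct and Tyrp1 had 4 of 32 (3, 247 and 71 counts) and 3 of 17 (2, 190 and 70). Rab38, which brings enzymes to the melanosome, had 2 of 7. Slc45a2, a melanosome transporter, had 1 of 4 with 2, 67 and 2 counts, and Gpnmb, a melanosomal glycoprotein, 1 of 8. No member was nearest to Tyr (5 tested features), Pmel (5), Mlana (3), Mlph (12), Tpcn2 (9), Rab27a (6), Cd63 (6), Slc7a11 (4) or Tspan10 (1). Gpr143 and Atp7a are X-linked and outside the rule. The Dct promoter drives the label used in the sort in all 3 conditions.

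Regulators and receptors of the melanocyte lineage had 40 members among 342 tested features (11.7%), near 11 of 19 genes. The median log2 ratios of this list were 1.90 over telogen and 0.49 over UVB. This list, drawn up with earlier results known, also holds Pde4d and Pde8a. Together with Sox5 these genes gave most of the 40 members, so the share of the list rests largely on them. Sox5 summed to 34, 1049 and 220 counts over its 11 members, 15.5-fold over telogen (11.0 to 22.5) and 7.42-fold over UVB (6.41 to 8.62). Pde4d and Pde8a, which break down cyclic AMP, had 7 of 52 and 4 of 10; one Pde8a region at chr7:81321017-81321517 had 1, 144 and 32 counts. Mitf had 3 of 33 with 7, 198 and 45 counts. Kit, the receptor for stem cell factor, had 3 of 28 with 11, 322 and 69. Zeb2 and Creb3l2 had 3 each, Pax3 and Lef1 2 each, and Tfec, a relative of Mitf, and Irf4 1 each. Sox10 (18 tested features), Ednrb (14), Foxd3 (9), Tfap2a (8), Mc1r (4), Erbb3 (4), Sox9 (3) and Snai2 (2) had none.

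By share of members, signalling lists stayed below the 6.21% of all tested features. The median log2 ratios of their tested features were 0.91 over telogen and 0.40 over UVB for Wnt genes. For Hedgehog, BMP, FGF and Notch genes they were 0.61 and 0.23, beside 0.37 and 0.26 over all tested features. Wnt genes had 5 members of 133 (3.76%), which included Lef1 (2) and Nkd1, an inhibitor of the pathway (2). Hedgehog, BMP, FGF and Notch genes had 9 of 228 (3.95%), among them a region 87.8 kb from Jag1, a Notch ligand, with 7, 141 and 53 counts, and one in Ptch1, the hedgehog receptor, with 4, 102 and 16. A region at Id2, an inhibitor of helix-loop-helix factors, had 15, 121 and 32 counts. Lists of other skin cells held few members. Their median log2 ratios over telogen and UVB were 0.79 and 0.28 (dermal) and 0.67 and 0.33 (pericyte and smooth muscle). They were 0.12 and 0.0003 for hair follicle keratinocyte genes and -0.19 and 0.51 for endothelial genes. Hair follicle keratinocyte genes had 1 of 67 (a region 246 kb from Runx1), dermal genes 2 of 148 (near Tbx18 and Col1a2), endothelial genes 1 of 68 (in Pecam1), and pericyte and smooth muscle genes 0 of 53. Cell cycle genes had 1 of 94 (near Cdkn1a) and immediate early genes 1 of 226 (near Nr4a3).

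The highest ratio to the larger of telogen and UVB was in Ep400, which encodes a chromatin remodeller, at chr5:110692259-110692759. It had 1 telogen, 159 anagen and 5 UVB counts, 79.9-fold over telogen (14.1 to 3176) and 49.5-fold over UVB (20.8 to 155). Its anagen counts lay in 82 nuclei, 78 of them of cluster 7. A region 17.2 kb from Rcsd1 followed with 1, 144 and 5 counts. The next were in Rai14 (1, 86 and 2), Ubxn7 (1, 69 and 1), Pacs2 (1, 89 and 4), Ptprg (1, 66 and 3), Rnpep (2, 149 and 7) and Trpm1 (1, 85 and 4). Single telogen counts make these ratios imprecise, as the width of the Ep400 interval shows. A condition with no count was set to 3 counts, so a region with 1 or 2 counts can rank above one with none. In each of the 20 top regions at least 74.2% of anagen counts came from cluster 7.

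The most anagen counts were in Eps8, an actin regulator, at chr6:137519752-137520252, with 5 telogen, 315 anagen and 61 UVB counts. It was 31.7-fold over telogen (13.4 to 98.2) and 8.04-fold over UVB (6.09 to 10.8), and 162 anagen nuclei had a count, 141 of them of cluster 7, which is 17.9% of that cluster's anagen nuclei. A region in Met, the receptor for hepatocyte growth factor, had 21, 257 and 94 counts. One in Kif26b had 2, 246 and 55 counts, one in Foxn3, a forkhead factor, 11, 243 and 93, and one in Hk2 19, 230 and 77. The remaining regions of the 10 with most counts were near Lyar and Grik3 and in Txndc16, Bmt2 and Vrk1, with 225 to 250 anagen counts. Even the member with most counts was thus without a count in most cluster 7 nuclei, at a median depth of 3391 counts.

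A smaller set of 175 members had under 50% of their anagen counts from cluster 7. The largest share came from cluster 6 in 80 of them, from the fibroblast-like cluster 3 in 74, from cluster 7 in 19, and from clusters 1 and 10 in 1 each. Cluster 6 had pericyte and smooth muscle markers at a median log2 of 1.37 and fibroblast markers at 1.17 and stayed unnamed for that reason. Over all nuclei these 175 summed to 5.86-fold (5.51 to 6.24) over telogen and 6.20-fold (5.96 to 6.45) over UVB. Outside cluster 7 they were 8.94-fold (8.39 to 9.52) over telogen and 9.45-fold (9.09 to 9.84) over UVB. Within cluster 3 the ratios were 3.85 (3.49 to 4.27) and 7.12 (6.68 to 7.59), the latter above the value over all nuclei, and within cluster 6 they were 2.91 (2.56 to 3.31) and 3.07 (2.72 to 3.47). Cluster 6 had 105 telogen, 683 anagen and 123 UVB nuclei, and cluster 3 had 144, 375 and 565. For the other 2749 members the ratios within cluster 7 were 1.52 (1.35 to 1.72) and 1.68 (1.64 to 1.72). The difference between both sets was not tested. The choice of the 175 by the origin of their anagen counts favours high ratios outside cluster 7.

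These 175 lay further from protein-coding genes: 55.4% were between them, 44.0% inside and 0.6% near an end. With all RefSeq genes 36.6% were between genes, 52.0% inside and 11.4% near an end. The other 2749 members then had 10.9% between genes and 8.0% near an end. The examples here were chosen after their values were seen. The most anagen counts were in a region 60.6 kb from Slc45a1 with 18, 162 and 27 counts, of which 1.23% of the anagen counts came from cluster 7. A region in Fndc3b had 16, 159 and 53 counts, one 28.9 kb from Mrps18a had 14, 152 and 32, and one 19.2 kb from Slc43a3 had 16, 142 and 13. Among genes of skin matrix and signalling, Fbln1, a matrix protein, held a region with 11, 125 and 41 counts. A region 80.4 kb from Tbx18, a T-box factor of dermal cells, had 10, 117 and 17, with none of its anagen counts from cluster 7 and 70.9% from cluster 6. Rad51b was nearest to 3 of the 175, and the growth factor genes Fgf18 and Gdf10 to 2 each.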

How the data were processed

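The authors deposited raw counts, whole numbers for each feature in each nucleus, with a matrix for every condition. Coordinates are printed as deposited. The submitters' processing notes name Bowtie2, SAMtools and MACS2 without versions and the build mm10, also called GRCm38. What each tool did, cut-site shifts, filters on nuclei and doublet removal: not given in the sources used here. Names of the same barcode (21.0% of telogen, 31.4% of anagen and 0.937% of UVB names were extra) were counted once per condition, keeping the deeper. Counts were summed per condition and scaled to CPM, which is not a deposited unit. Features open in at least 20 nuclei, without the top 1% and without members, were weighted by TF-IDF, reduced to 30 components (1 left out for depth) and clustered by Leiden (15 neighbours, resolution 0.6, seed 1) with Python 3.11.15, scikit-learn 1.9.0, igraph 0.11.9 and leidenalg 0.10.2. A cluster name needed 3 markers at 2-fold and a median log2 fold 0.3 above that of any other list. In addition, no other list could have more markers among the cluster's 10 top genes, taken from genes with at least 200 counts. Intervals are exact conditional binomial for ratios and Clopper-Pearson for shares. The rule was run on independent counts simulated per condition, with known changes, no paired counts and no clusters of nuclei. That run checks the calculation and not the error of the rule in these data. Named regions were the 20 with the highest smaller ratio, the 10 with most anagen counts, the 3 with most counts per list, runs of 3 or more and those at the thresholds; named genes were their nearest genes and the 10 with most members. The members and lists were chosen with earlier results of these data known. Sequences are from RefSeq (GRCm38.p6).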

Additional observations from a re-analysis of the deposited data

Results flagged for a closer look

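The rule kept autosomes, and X-linked features were looked at apart. Of 755 with at least 50 anagen counts, 16 (2.12%) passed the same thresholds, a signal in data outside the rule. They had a median of 59 anagen counts (50 to 130), 3.5 telogen counts (0 to 9) and 16 UVB counts (2 to 46). Each of the 16 had at least 82.2% of its anagen counts from cluster 7, with a median of 93.0%. The nearest genes included Nhs, Mid2, Clcn5 and Tmem164, with 2 each. No pigment gene of the list was among the nearest genes of the 16.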

How the results depend on the processing

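The number of members depended on the thresholds and on which nuclei were counted. It was 4463 at 3-fold and 1534 at 6-fold, and 6125 and 567 at minimums of 30 and 100 anagen counts. With extra barcode names counted it was 5195, which held 2736 of the 2924 members, and with nuclei in place of counts 644. Without nuclei above 3 times the median count it was 150 (0.733% of the features then tested). Leaving out each anagen tag number of at least 50 nuclei in turn gave 625 (without tag number 5, 1.95% of those then tested) to 2895. Chosen after seeing the data, leaving out cluster 7 gave 592 (2.31% of those then tested) and leaving out UVB tag number 24 gave 3328. The shallower copy of a barcode gave 2616 and scaling to housekeeping gene ends 3046. The share of the members' anagen counts in cluster 7 was 86.6% to 86.7% under another seed, resolutions of 0.3 and 1.0 and members kept in the clustering, and 77.8% with nuclei thinned to 1000 counts. The summed ratio over telogen was 7.96 in the melanocyte-like clusters together, 1.53 in cluster 7, 1.74 in the other melanocyte-like clusters and 2.76 outside cluster 7; over UVB these were 8.19, 1.68, 1.91 and 1.77. The share of members near a gene end was 2.19% within 500 bp, 7.25% within 2 kb and 8.21% for all RefSeq genes. At 2 kb 77.3% were inside genes and 15.5% between them, and 12.5% were between genes for all RefSeq genes. Runs of 3 or more held 819 members at 50 kb and 1518 at 200 kb. Beyond fewer features, nuclei or counts entering the rule, the cause of these shifts was not tested. No paired analysis was possible because each condition is 1 sample and no test was made. A member had a median of 3 telogen counts, which limits each ratio over telogen.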
